A study of Homo sapiens with 8 samples.

Results

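Nonsense-mediated decay is the pathway that degrades mRNAs whose reading frame ends too early. The transcripts of 9 of its factors were followed here: UPF1, UPF2, UPF3A, UPF3B, SMG1, SMG5, SMG6, SMG8 and SMG9, chosen by name. All skipped-exon events listed under these gene symbols were taken, 74 of 82355 events in the table for MCF10A and 110 of 98244 in the table for HMLE TWIST. They make 131 distinct events, of which 53 are in both tables. After the filter on low counts, 23 member events could be tested in MCF10A and 30 in HMLE TWIST.

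RNA came from 8 libraries in 4 groups, with 2 replicates each. MCF10A is a non-tumorigenic breast epithelial line, and HMLE TWIST is an immortalised breast epithelial line that overexpresses TWIST from an integrated retrovirus. Each was given the solvent DMSO or 10 µM emetine for 24 h, and polyadenylated RNA was sequenced with stranded paired-end libraries. TWIST was overexpressed in both HMLE TWIST groups, so the lines differ in origin and in TWIST together, and these cannot be told apart. Summed over listed events, which share reads, the libraries held between 78412292 and 91259363 junction reads.

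UPF1 is an RNA helicase that is recruited to ribosomes that stop too early. UPF2 links it to UPF3A or UPF3B, which contact the exon junction complex left behind by splicing, so a stop well upstream of the last junction marks an mRNA for decay. The kinase SMG1, held in check by SMG8 and SMG9, phosphorylates UPF1, which then binds SMG5 and the endonuclease SMG6. Decay depends on translation, and emetine blocks translation elongation, so inhibitors of this kind are used to make decay targets visible. Several decay factors are themselves known to have transcripts that the pathway degrades.

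The question was whether the decay factors' own transcripts shift to unproductive forms under emetine. The sequences below show where the reading frame was predicted to end in the forms on which the results turn. Each starts 20 bases before the exon junction that makes the form and ends with the stop codon in capitals. Bases are from GENCODE 29 transcripts (GRCh38), in the sense of the transcript, 5′ to 3′.
SMG1 with the 58-nt exon: tggaatgactggcaacccagattgactTGA
UPF3A without the 161-nt exon: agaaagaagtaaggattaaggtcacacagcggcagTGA
UPF2 without the 109-nt exon: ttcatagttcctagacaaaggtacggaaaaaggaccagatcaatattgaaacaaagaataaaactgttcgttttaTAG
SMG9 without the 113-nt exon: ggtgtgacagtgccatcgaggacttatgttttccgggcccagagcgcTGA
UPF3A without the 107-nt exon and the next exon: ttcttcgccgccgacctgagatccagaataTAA
UPF1 with the 80-nt exon: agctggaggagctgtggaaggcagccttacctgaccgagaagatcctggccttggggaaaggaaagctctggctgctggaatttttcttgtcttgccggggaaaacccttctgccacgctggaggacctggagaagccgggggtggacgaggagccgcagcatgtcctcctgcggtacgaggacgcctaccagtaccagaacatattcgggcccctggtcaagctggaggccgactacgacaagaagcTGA

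In SMG1 the stop ends 10 bases past the junction, inside the included exon, and in UPF3A without the 161-nt exon it ends 18 bases past the junction. In UPF2 it comes after 58 bases, in SMG9 after 30 and in UPF1 after 231, beyond the 80-nt exon itself. The distance from these stops to the last junction ranged from 277 nt in UPF3A without the 161-nt exon to 10864 nt in SMG1.

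Exon inclusion differed with emetine, by the calls, in 3 of the 8 members that could be tested, SMG1, UPF3A and UPF2. By gene, 2 of 7 tested members had a call in MCF10A, beside 2320 of all 7852 tested genes. In HMLE TWIST it was 3 of 8, beside 2775 of 8058. Shares of reads do not tell a change of splicing from a change in the stability of a form, and neither was tested. In MCF10A, 7 of 23 member events were called (30.4%), beside 13.8% of all 25522 tested events. In HMLE TWIST, 6 of 30 were called, beside 15.0% of 30290. Of these calls 4 were higher and 3 lower under emetine in MCF10A, and 4 higher and 2 lower in HMLE TWIST. The calls are not independent: 5 of the 7 in MCF10A, and 3 of the 6 in the other line, lie in a single stretch of UPF3A and share junction reads. On the 0 to 1 scale of inclusion, the median absolute change in MCF10A was 0.0259 over the 23 member events, against 0.0239 over all events. In HMLE TWIST it was 0.0276 against 0.0255. limma on the log2 odds of inclusion called 2 member events in each line, beside 7.88% of all events in MCF10A and 9.94% in HMLE TWIST, so that by this tool the members' share lay near or below that of all events. Without HMLE TWIST control replicate 2 the quasi-binomial count in that line was 2. In the authors' deposited table, all 7 and all 6 of these events also had a false discovery rate under 0.05 and a difference of at least 0.1.

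SMG1 had the largest rise of inclusion among the members in both lines. Its 58-nt exon lies at chr16:18911309-18911366 (GRCh37, the build of all coordinates here, minus strand). In MCF10A inclusion made up 24.9% and 34.6% of the length-corrected reads of this choice with DMSO, and 54.5% and 75.8% with emetine. Below, too, a percentage of transcripts stands for such a share of reads at the exon's splice choice, not of all the gene's transcripts. In HMLE TWIST the libraries gave 24.1% and 28.6% with DMSO, and 54.0% and 51.0% with emetine. The groups did not overlap in either line, and all 4 emetine libraries lay above all 4 DMSO libraries.

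Inclusion of the SMG1 exon rose by 35.4 percentage points in MCF10A, from 29.8% ± 6.82 to 65.1% ± 15.1 (SD, n = 2; quasi-binomial model, adjusted p = 7.77e-06). In HMLE TWIST it rose by 26.2 points, from 26.4% ± 3.2 to 52.5% ± 2.16 (n = 2; adjusted p = 0.00151). The replicates in MCF10A spread beyond the shared dispersion, and with the event's own dispersion the adjusted p was 0.0497. That value treats a dispersion estimated from so few libraries as known, so it may be too small and does not settle the call. limma gave adjusted p = 0.0762 in MCF10A and 0.0521 in HMLE TWIST, and without HMLE TWIST control replicate 1 the quasi-binomial adjusted p was 0.0568, with a rise of 0.239 on the 0 to 1 scale of inclusion.

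To compare the amounts of both forms, length-corrected reads were scaled in each library to junction reads per 1000000 (JPM). The total counts only each gene's deepest event listed for both lines, not all junction reads of the library. The SMG1 form with the exon went from 1.44 and 1.84 JPM to 8.01 and 10.0 in MCF10A. The form without it was at 4.32 and 3.47 with DMSO and at 6.70 and 3.2 with emetine. In HMLE TWIST the form with the exon went from 1.82 and 1.71 to 3.66 and 5.68, and the form without it was at 5.75 and 4.26, then at 3.11 and 5.47. In both lines the form with the premature stop lay higher in each emetine library than in each DMSO library, while the values of the other form overlapped between the treatments. The annotation does not class this form as unproductive: 3 coding transcripts hold the exon, with translation starting in its last 14 bases. In the annotated frame of transcript SMG1-202, by contrast, reading through from upstream ends inside the exon. SMG1 has several near-identical pseudogene copies, so reads may be split or misplaced between them, and its values are uncertain to that extent.

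**Figure D1:**
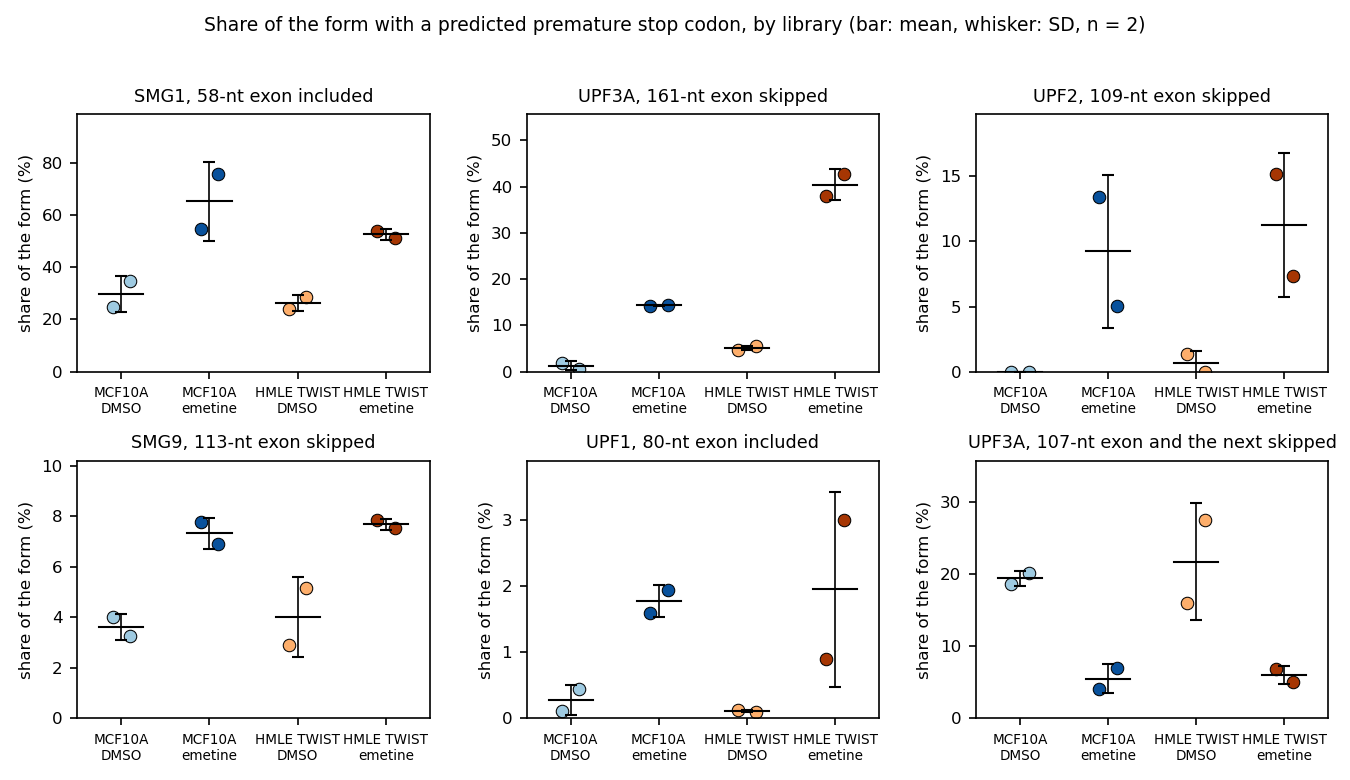
Share of the form with a predicted premature stop codon in each library (y axis, %), for 6 exons of 5 decay factors; points are libraries, bars the mean and whiskers the SD of 2 replicates. The share was higher in both emetine libraries than in both DMSO libraries of the same line in all panels but the last. There, UPF3A lacking the 107-nt exon and the next exon was lower. The UPF2 and UPF1 exons in both lines, and the other UPF3A exon in MCF10A, passed the filter through their emetine libraries. Their direction was thus largely set in advance. How often the groups separate over all tested events was not counted, so the separation shows nothing particular to these exons. The panels leave out other named events, and the UPF1 exon was named after its values were seen. Among those not shown, skipping of the 202-nt exon of SMG6 was lower with emetine in MCF10A and higher in HMLE TWIST. Skipping of the 107-nt exon of UPF3A by a direct junction to the next exon was lower in HMLE TWIST and overlapped in MCF10A.

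UPF3A, the paralogue of UPF3B that binds the exon junction complex, had the largest fall of the members in HMLE TWIST. Its 161-nt exon at chr13:115064315-115064475 (plus strand) is coding in both annotated coding transcripts that hold it. Skipping leaves a frame that ends early, and the junction is annotated in a transcript with no coding sequence. In MCF10A the exon was skipped in 1.95% and 0.643% of transcripts with DMSO, and in 14.2% and 14.4% with emetine. In HMLE TWIST it was skipped in 4.79% and 5.47% with DMSO, and in 38.0% and 42.8% with emetine. No emetine library reached into the range of the DMSO libraries.

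Inclusion of the 161-nt exon of UPF3A fell by 13.0 percentage points in MCF10A, from 98.7% ± 0.923 to 85.7% ± 0.129 (n = 2; adjusted p = 1.4e-10 by the quasi-binomial model, 0.0244 by limma). In HMLE TWIST it fell by 35.3 points, from 94.9% ± 0.480 to 59.6% ± 3.35 (n = 2; adjusted p = 1.37e-29, and 0.0122 by limma). Of the member events, this one alone was called by both tools in both lines. In MCF10A, however, it had 6 and 2 skipping reads with DMSO and passed the filter through its emetine libraries. Its direction in that line was thus largely set in advance. The skipping form went in MCF10A from 0.617 and 0.193 JPM to 5.82 and 5.33, and in the other line from 1.55 and 1.23 to 23.5 and 19.4. The inclusion form stood at 31.1 and 29.8, then 35 and 31.6, in MCF10A, and at 30.7 and 21.3, then 38.3 and 26.0, in HMLE TWIST. The full-length form thus stayed the more abundant form in all 8 libraries.

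A second stretch of UPF3A carried the other called events. It runs from the exon that ends at 115047602 through a 107-nt exon (chr13:115048312-115048418) and a 99-nt exon (chr13:115051777-115051875) to the exon that starts at 115051994. The 99-nt exon can begin earlier, which makes it 142 nt long. The 99-nt exon keeps the frame, and the short protein that lacks it is known to bind UPF2 poorly.

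The form that lacked both the 107-nt exon and the next exon fell. It made up 18.7% and 20.2% of the reads of this choice in MCF10A with DMSO, and 4.07% and 6.97% with emetine. For HMLE TWIST it was 16% and 27.5% with DMSO, and 6.85% and 5.10% with emetine. Inclusion of the 107-nt exon rose by 13.9 percentage points in MCF10A (adjusted p = 5.77e-04 by the quasi-binomial model, 0.0454 by limma) and by 15.7 points in HMLE TWIST (adjusted p = 1.92e-04, and 0.0505 by limma). The form that fell is the form with the premature stop, TAA 13 bases past the junction, so this event moved away from its unproductive form. Without HMLE TWIST control replicate 2, the HMLE TWIST change was 0.1 on the 0 to 1 scale and the call was lost (adjusted p = 0.0535).

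The event of the 107-nt exon that is deepest in its shallowest library, in which it was set against a direct junction to the 99-nt exon, was near full inclusion. It gave between 92.9% and 100% in the 8 libraries, with 0 to 7 reads for the direct junction in a library. In HMLE TWIST its inclusion was 4.02 points higher with emetine (adjusted p = 0.0325 by the quasi-binomial model), under the size needed for a call, and in MCF10A it was not tested. That junction being almost absent, the events that set the 99-nt or 142-nt exon against the exon ending at 115047602 rest on the downstream junction. It gave nearly all their inclusion reads, and transcripts that hold the 107-nt exon share it. Their calls, with rises of 13.0 points for both in MCF10A, then 16.7 and 16 points in the other line, share the junction reads of the form without either exon. In MCF10A their adjusted p values were 0.0461 and 0.0454, and both calls were lost when any of the 4 libraries was left out.

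Where the 107-nt exon was included, use of the 99-nt exon was lower with emetine in MCF10A, and this change was called. Its inclusion was 62.9% and 63.5% with DMSO and 50.8% and 45.6% with emetine, a fall of 15.0 points (adjusted p = 0.00174 by the quasi-binomial model, 0.181 by limma). The event listed for the 142-nt exon was also called, with -15.6 points (adjusted p = 0.00282, and 0.164 by limma), but it does not measure that form. Its inclusion reads, 130 and 143 with DMSO and 168 and 175 with emetine, include the downstream junction, which the 99-nt exon shares. The event that shares this junction and starts at 115047602 had 129, 139, 161 and 167. That leaves 1 and 4 reads for the 142-nt form with DMSO and 7 and 8 with emetine, so the form with the premature stop was rare in all 4 libraries and its own reads were not lower with emetine.

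In HMLE TWIST the 99-nt exon stood at 67.5% and 68.7% with DMSO and at 65.1% and 54.3% with emetine. That difference of -8.38 points did not pass the test (adjusted p = 0.0934 by the quasi-binomial model). The same subtraction left 10 and 14 reads for the 142-nt form with DMSO and 18 and 10 with emetine. The 2 emetine libraries of HMLE TWIST differed from each other by more than the DMSO libraries did at this choice. UPF3A also has pseudogene copies in the annotation, and the same caution on shared reads holds for it.

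UPF2, the adaptor between UPF1 and the UPF3 proteins, had very little skipping of its 109-nt exon (chr10:12021056-12021164, minus strand) without emetine. In MCF10A 0 reads skipped it in both DMSO libraries, which allows a share of up to 4.44% and 3.47%. With emetine it was skipped in 13.4% and 5.07% of transcripts. In HMLE TWIST skipping was 1.32% and 0% with DMSO, the latter allowing up to 5.36%, and 15.2% and 7.38% with emetine. The emetine replicates differed widely in both lines, but each lay above the DMSO values of its line.

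Inclusion of the UPF2 exon was lower by 10.6 percentage points in HMLE TWIST, which was called (adjusted p = 0.00314 by the quasi-binomial model, 0.0304 by limma). In MCF10A the change was -9.22 points (adjusted p = 9.26e-04, 0.0247 by limma, and 0.111 with the event's own dispersion), under the 10 points needed. This event passed the filter through its emetine libraries in both lines, so its direction was largely set in advance. The HMLE TWIST call was lost without control replicate 2 (adjusted p = 0.0625) and without emetine replicate 1 (adjusted p = 0.0862, change -0.0671 on the 0 to 1 scale). The form with the exon also stood higher, at 23.5 and 14 JPM in MCF10A with emetine against 6.63 and 8.05 with DMSO. A second exon, 184 nt at chr10:11994065-11994248, had 0 skipping reads in all 4 DMSO libraries. With emetine it had 8 and 3 in MCF10A, and 8 and 9 in HMLE TWIST, where the change was -5.27 points (adjusted p = 0.0255, and 0.0705 with the event's own dispersion). This exon, which also leaves a premature stop when skipped, was named after its values were seen. Its event passed the filter through the emetine libraries alone, so its direction was set in advance.

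**Figure D2:**
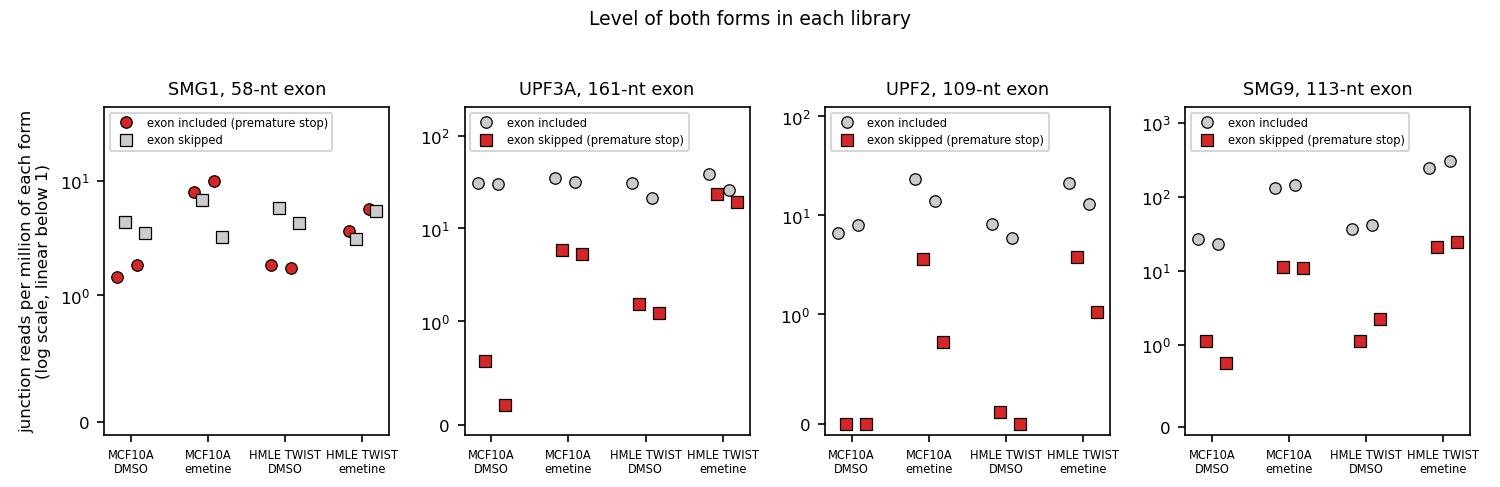
Level in JPM of the inclusion form (circles) and the skipping form (squares) in each library, on a log scale that is linear below 1; red marks the form with a predicted premature stop. For the 161-nt exon of UPF3A the red form went from 0.617 and 0.193 to 5.82 and 5.33 in MCF10A while the grey form stayed near 30, and for UPF2 and SMG9 both forms stood higher with emetine.

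The remaining members had no called event. SMG9, a partner that restrains SMG1, was skipped at its 113-nt exon (chr19:44248924-44249036, minus strand) in 4.0% and 3.27% of transcripts in MCF10A with DMSO and in 7.77% and 6.90% with emetine. In HMLE TWIST the values were 2.89% and 5.15%, then 7.85% and 7.54%. The shift was small, -3.70 points in MCF10A (adjusted p = 0.0492 by the quasi-binomial model, 0.143 by limma) and -3.67 points in HMLE TWIST (adjusted p = 0.0189, and 0.19 by limma), but the groups did not overlap. The skipping form went in MCF10A libraries from 1.13 and 0.771 to 11.2 and 10.8 JPM, and from 1.11 and 2.24 to 21.1 and 24.5 JPM in those of HMLE TWIST. The form with the exon rose as well, from 27.1 and 22.9 to 133 and 145 JPM in MCF10A. In HMLE TWIST that form went from 37.1 and 41.3 to 248 and 301 JPM.

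UPF1, the helicase at the centre of the pathway, was tested at a 119-nt coding exon (chr19:18965933-18966051, plus strand) by the rule for members with no call. Its inclusion lay between 99.1% and 100% in all 8 libraries. Skipping was seen with 10 and 3 reads in the emetine libraries of HMLE TWIST and 0 in its DMSO libraries, a change of -0.524 points (adjusted p = 0.0331, but 0.273 with the event's own dispersion). This event, too, passed the filter in that line through the emetine libraries alone. An 80-nt exon of UPF1 (chr19:18961859-18961938), known only from a transcript with no coding sequence and named after its values were seen, was rare throughout. It was included in 0.116% and 0.439% of transcripts in MCF10A with DMSO and in 1.60% and 1.95% with emetine. In HMLE TWIST inclusion was 0.127% and 0.1%, then 0.905% and 3.00%. All 4 emetine libraries were above all 4 DMSO libraries, with rises of 1.5 points (adjusted p = 0.00223 by the quasi-binomial model, 0.0520 by limma) and 1.84 points (adjusted p = 8.79e-06, 0.0317 by limma, and 0.0579 with the event's own dispersion). With DMSO the exon had 1 and 4 inclusion reads in MCF10A and 1 and 1 in HMLE TWIST. It passed the filter through its emetine libraries, so the direction was largely set in advance.

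UPF3B was read at a 111-nt coding exon (chrX:118977154-118977264, minus strand) that was included at 94.8% to 100% in the 8 libraries. It did not pass the test in HMLE TWIST, at -2.63 points (adjusted p = 0.562). Its 39-nt exon (chrX:118974609-118974647), by which the annotated coding forms differ, stood at 26.5% and 20.9% with DMSO in MCF10A and at 13.7% and 13.9% with emetine. That is a difference of -9.87 points with adjusted p = 0.0588. In HMLE TWIST the exon was at 23.5% and 25.4%, then at 17.5% and 22.3% (adjusted p = 0.333). Both forms of this choice keep the frame. A longer, 91-nt version of the exon (chrX:118974557-118974647), whose form has a predicted premature stop and which was named after its values were seen, changed by 0.00314 in MCF10A and -0.00572 in HMLE TWIST on the 0 to 1 scale and did not pass the test (adjusted p = 0.864 and 0.772).

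SMG5, which binds phosphorylated UPF1, was read at its 138-nt exon (chr1:156236332-156236469, minus strand). Inclusion lay between 97.4% and 98.7% in all libraries, with changes of 0.329 points (adjusted p = 0.711) and 1.20 points (adjusted p = 0.156). SMG6, the endonuclease, had no testable event in MCF10A. In HMLE TWIST its 202-nt exon (chr17:2075952-2076153, minus strand) had 0 skipping reads in both DMSO libraries, which allows up to 1.92% and 1.94%. Emetine libraries had 2.0% and 5.07% skipping, a change of -3.53 points (adjusted p = 0.00596 by the quasi-binomial model, but 0.171 with the event's own dispersion). The event passed the filter through these emetine libraries alone, so its direction in this line was set in advance. In MCF10A the same exon was skipped in 1.45% and 2.27% with DMSO and had 0 skipping reads with emetine. SMG8, the other partner of SMG1, had 1 listed event, in MCF10A alone, with 1 skipping read in all and no test.

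Counted by form, the called events did not all move to the unproductive side. By the annotation, a form is unproductive if no coding transcript holds it or, for a form that is not annotated, if the exon's length is not a multiple of 3. On that reading, 1 call in MCF10A moved toward the unproductive form (the 161-nt exon of UPF3A) and 2 are counted as away. Of these, the event of the 142-nt exon rests on the junction it shares with the 99-nt exon and shows no fall of the form with the stop, which leaves 1. The other 4 were between coding forms or in neither class. In HMLE TWIST 2 moved toward it (the same exon and UPF2) and 1 away, with 3 in neither class. By the predicted reading frame, which counts SMG1 as well, 2 moved toward and the same 2 are counted as away in MCF10A, and 3 moved toward and 1 away in HMLE TWIST. All events counted as away lie in the stretch of UPF3A between the exons at 115047602 and 115051994. The filter bears on such counts: 10 of the 23 tested member events in MCF10A, like 11 of the 30 in the other line, had under 10 reads of the rarer form in the controls and passed through their emetine libraries, and 0 passed through the controls alone. The call of the 161-nt exon of UPF3A in MCF10A and that of UPF2 in HMLE TWIST are among these events. So, without a call, are the 109-nt exon of UPF2 in MCF10A, and its 184-nt exon and the 80-nt exon of UPF1 in both lines. In HMLE TWIST the 119-nt exon of UPF1 and the 202-nt exon of SMG6 are as well. A test of any of them could hardly have gone the other way.

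**Figure D3:**
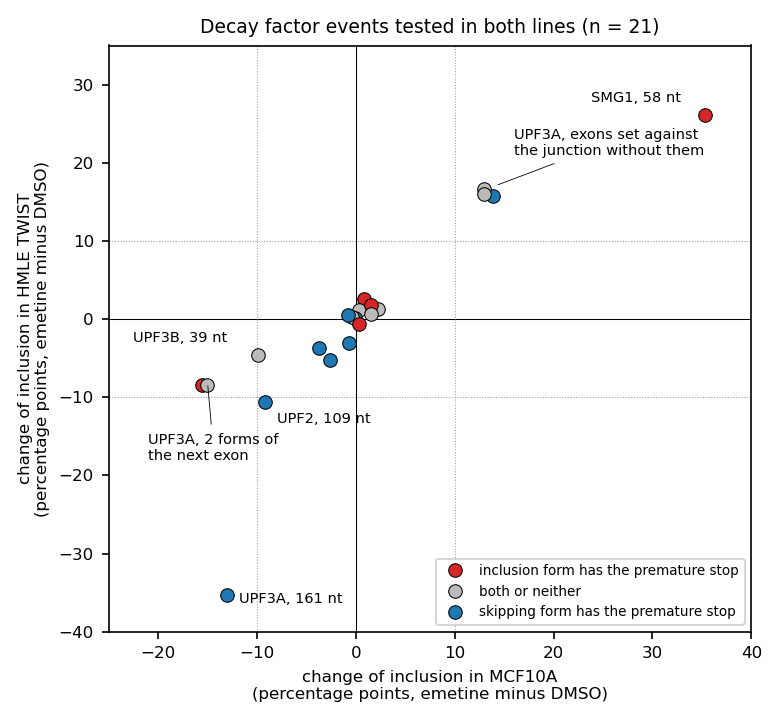
Change of inclusion under emetine in MCF10A (x axis) and HMLE TWIST (y axis), in percentage points, for the 21 member events tested in both lines; colour shows which form has the predicted premature stop, and dotted lines mark 10 points. SMG1 lies at 35.4 and 26.2, and the 161-nt exon of UPF3A at -13.0 and -35.3.

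Across the lines, 5 member events were called in both, and the 21 events tested in both had the same sign in 17. Of the 5, the events of the 107-nt, 142-nt and 99-nt exons of UPF3A use the same skipping reads and are not independent. The same counts over all events are not given here, so these show nothing particular to the members. No member event passed the test for a different response between the lines: 0 of 34 were called by the quasi-binomial model, where 1.89% of all events were, with 1 at an unadjusted p under 0.05 and 0 calls by limma (4 at an unadjusted p under 0.05). limma called 0.0% of all events here, so its 0 says nothing about the members. For the 161-nt exon of UPF3A the change in HMLE TWIST minus that in MCF10A was -22.2 points, yet the term for line by treatment, fitted on log odds, gave an adjusted p of 1.0. The DMSO libraries of HMLE TWIST already skipped this exon more, with inclusion -3.84 points apart from MCF10A (adjusted p = 0.0468, and 0.181 by limma). Without emetine, 0 of 19 member events differed between the lines by the quasi-binomial model, where 6.60% of all events did. In that comparison 2 had an unadjusted p under 0.05, and limma called 0, with 1 under 0.05 unadjusted, beside 0.185% of all events.

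The genes whose exons followed the SMG1 exon most closely were sought among 20127 events of 6848 genes tested in both lines, by the distance of the 8 inclusion levels. The nearest was a 105-nt exon of HNRNPDL (chr4:83346716-83346820), which encodes an RNA-binding protein of the hnRNP family, at a distance of 0.133 on the 0 to 1 scale. Its mean inclusion was 31.6% and 65.5% in MCF10A without and with emetine, and 22.5% and 51.2% in the other line. Exons of SNUPN, LINC01578, COL8A1 and TRAPPC2 followed, at distances of 0.179 to 0.241. These are descriptions over 8 libraries that share the treatment.

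The amount of RNA read from each gene, its junction-read level, was also compared, since a shift between forms leaves it unsaid. SMG9 rose most. It was at 31.5 and 31.2 JPM in MCF10A with DMSO and at 168 and 184 with emetine, a log2 change of 2.49 (SE 0.14, 5.61-fold; limma adjusted p = 2.21e-07). The HMLE TWIST libraries went from 46.6 and 50.6 to 315 and 374, a log2 change of 2.82 (SE 0.14; limma adjusted p = 1.34e-07). The median gene changed by 0.27 in MCF10A and 0.41 in HMLE TWIST on this scale, and with each library centred on its median gene the SMG9 changes were 2.14 and 2.37.

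UPF3B and UPF2 rose in both lines with wide replicate spread. UPF3B was at 6.72 and 9.02 in MCF10A with DMSO and at 48.5 and 26.0 with emetine (log2 change 2.18, SE 0.33; limma adjusted p = 2.12e-04). In HMLE TWIST it went from 12.6 and 10.5 to 37.7 and 21.9 (1.32, SE 0.33; adjusted p = 0.00538). UPF2 went from 6.22 and 8.44 to 27.7 and 15.9 in MCF10A (1.53, SE 0.36; limma adjusted p = 0.00342). For HMLE TWIST libraries it went from 11.1 and 7.73 to 27.3 and 14.6 in HMLE TWIST (1.11, SE 0.36; adjusted p = 0.0193). Every emetine library lay above the DMSO libraries of its line. Centred on the median gene, the changes were 1.83 and 0.87 for UPF3B and 1.18 and 0.66 for UPF2, so that neither kept its call in HMLE TWIST.

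SMG5 rose in both lines and SMG6 in HMLE TWIST. SMG5 went from 49.3 and 56.1 to 156 and 157 in MCF10A (log2 change 1.57, SE 0.15; limma adjusted p = 9.85e-06). Its HMLE TWIST level went from 59.3 and 64.1 to 110 and 142 (1.02, SE 0.15; adjusted p = 1.97e-04, and 0.57 when centred, below the size needed). SMG6 was at 8.23 and 9.21, then 9.44 and 10.5, in MCF10A (0.19, SE 0.19, and -0.16 when centred; limma adjusted p = 0.402). Its HMLE TWIST level went from 19.7 and 18.3 to 60.4 and 69.0 (1.76, SE 0.19; adjusted p = 2.17e-05). The difference of response of SMG6 between the lines, 1.57 (SE 0.27), passed its own test (limma adjusted p = 0.00221), and centring left it at 1.47.

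UPF1, UPF3A and SMG1 had smaller differences, none of them called in a line. UPF1 was at 75.4 and 65.3, then 104 and 120, in MCF10A (log2 change 0.67, SE 0.17) and at 84.4 and 97.8, then 135 and 179, in HMLE TWIST (0.78, SE 0.17). UPF3A differed by 0.33 (SE 0.21) in MCF10A and 0.97 (SE 0.21) in HMLE TWIST, and when centred by -0.02 and 0.52. SMG1 was at 11.8 and 13.8, then 25.5 and 17.8, in MCF10A (0.73, SE 0.25; limma adjusted p = 0.0257), and at 17.8 and 12.5, then 11.9 and 11.6, in HMLE TWIST (-0.34, SE 0.25; adjusted p = 0.257). The responses of SMG1 differed by -1.08 (SE 0.36; limma adjusted p = 0.0436), a call that was lost with all events of the gene summed (adjusted p = 0.0692). Levels of the same gene in bulk RNA do not tell apart fewer cells with the transcript and less RNA per cell.

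**Figure D4:**
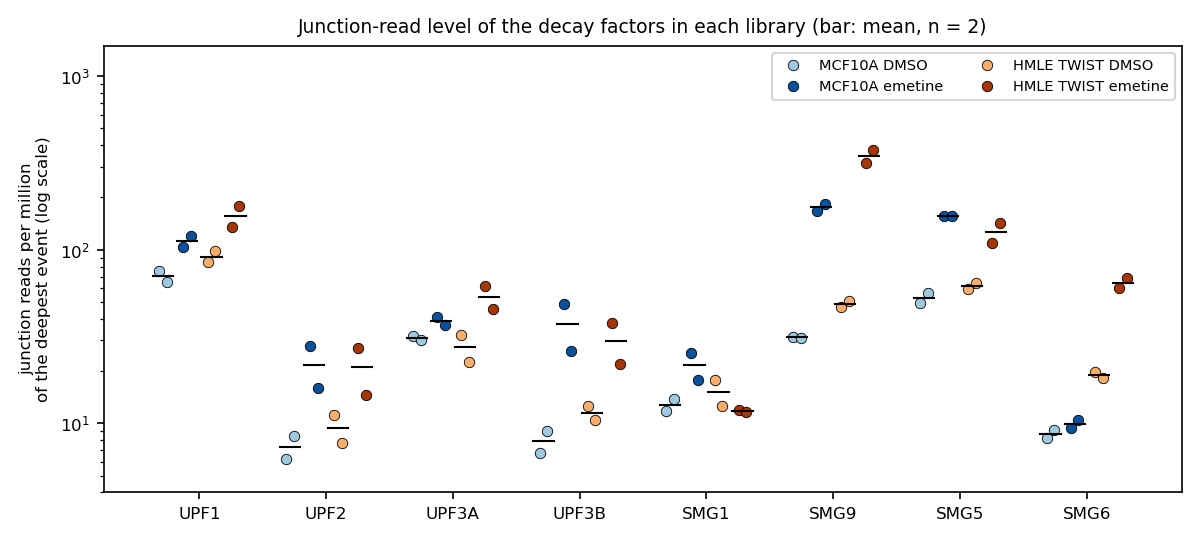
Level in JPM of each member's deepest event (y axis, log scale) in the 4 groups; points are libraries and bars the mean of 2. SMG9 goes from 31.5 and 31.2 to 168 and 184 in MCF10A, SMG6 goes from 19.7 and 18.3 to 60.4 and 69.0 in HMLE TWIST, and SMG8 is not shown because no event of it is in both tables.

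In all, 4 of 8 measured members rose in MCF10A (SMG5, SMG9, UPF2, UPF3B), beside 24.5% of 10357 genes, and 0 fell. In HMLE TWIST 5 of 8 rose (those and SMG6), beside 28.6% of genes, and 0 fell. The median log2 change of the members was 1.13 and 1.06. With centring, 4 rose in MCF10A, beside 16.5% of genes, and 2, SMG6 and SMG9, in HMLE TWIST, beside 17.4%. Uncentred but without HMLE TWIST emetine replicate 1, 3 rose there. For the response between lines 2 of 8 were called, beside 19.8% of genes. Each level rests on 1 exon's junctions.

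Of the other genes of the pathway, 24 had a tested event in each line. In MCF10A 7 of them had called events, 9 of 64 events, 8 higher and 1 lower. The other line had 5 such genes and 7 of 88 events, 5 higher and 2 lower. Beside the 13.8% and 15.0% of all events, these shares are near the background in MCF10A and below it in HMLE TWIST. The exon junction complex gene MAGOHB had called events in both lines, among them a 286-nt exon with mean inclusion of 1.85% ± 0.544 before and 13.9% ± 0.464 after emetine in MCF10A (n = 2), and of 8.47% ± 0.075 and 28.9% ± 0.409 in the other line. A 33-nt exon of NCBP3, a cap-binding protein, and a 68-nt exon of the exonuclease DIS3 also rose in both. In the termination and poly(A)-binding genes 0 of 3 had a called event in either line. By level, 6 of 25 pathway genes rose in MCF10A and 9 in HMLE TWIST, beside 24.5% and 28.6% of all genes. DCP1A, EDC4 and MAGOHB rose in both. With each library centred on its median gene, 3 and 5 rose, beside 16.5% and 17.4% of all genes, and none did so in both lines. PABPC1, which binds the poly(A) tail, fell in both lines under both scalings.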

How the data were processed

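RNA-seq libraries of 2 breast epithelial lines were compared with and without emetine. Reads were aligned with STAR 2.5.3a to GRCh37, per the submitters' processing notes. The settings and version of rMATS, which made the tables, and its annotation are not given in the sources used here. Per the file headers, the authors' deposited values are junction read counts of the inclusion and skipping form of each skipped exon, a p-value with its false discovery rate, and a score for the difference between the groups' inclusion levels. The order control, emetine was read from the name of each table, and the order of replicates inside a cell was taken as 1, 2 without a check.

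Inclusion levels were recomputed from the counts, each count first divided by the effective length of its form. Events entered a fit with at least 20 reads in every library and at least 10 reads of the rarer form. A quasi-binomial model was fitted to all such events (R 4.3.3), with dispersions moderated by limma 3.58.1 and floored at 1. All events of a line came to share a single dispersion, 1.97 in MCF10A and 1.95 in HMLE TWIST. Where an event's own dispersion was used in its place, it was treated as known, so those p-values may be too small. The F tests are two-sided, with Benjamini-Hochberg adjustment over the whole table. A change was called at an adjusted p under 0.05 and at least 10 percentage points. Replicates are separate samples of a group in the labels, which do not say whether they are separate cultures, so p-values may measure technical spread alone. The scripts were tested on simulated data.

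The named events follow a fixed rule: for each exon with a called event, the event deepest in its shallowest library, and for members without one, their deepest tested event. Others named were chosen after their values were seen. Members and lists were chosen with earlier results of these data known, and 1 gene of the pathway list is not reported here. Events were matched to GENCODE 29 transcripts by exon and intron lengths, with no coordinates compared, and all 131 distinct events matched once. A stop codon more than 50 nt before the last junction was counted as premature. The junction-read level, added after the splicing results were seen, is the reads per splice path of a gene's deepest event in both tables, per 1000000 over all genes, tested with limma on log2 values with 0.5 added and called at an adjusted p under 0.05 and a log2 change of at least 1.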

Additional observations from a re-analysis of the deposited data

Results flagged for a closer look

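In 2 decay factors and 3 other genes of the pathway the response to emetine differed between the lines by the test of the difference itself. By level these were 2 of 8 members and 2 of 25 pathway genes, beside 19.8% of all genes, and by exon use 0 of 34 member events and 2 of 100 pathway events, beside 1.89% of all events, so the counts are near or below those over all features. The junction-read level of SMG1 responded lower in HMLE TWIST than in MCF10A, with a difference of log2 changes of -1.08 (limma adjusted p = 0.0436, and 0.0692 with all events of the gene summed), and that of SMG6 higher, with 1.57 (adjusted p = 0.00221). The level of the decapping factor DCP1B differed by 1.24 (adjusted p = 0.0361) and that of the exonuclease DIS3L by 2.47 (adjusted p = 0.00102). DIS3L was also lower in HMLE TWIST without emetine, by -1.71.

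A 75-nt exon of the helicase DHX34 was included in 23.8% and 24.8% of transcripts in MCF10A with DMSO and in 40.4% and 37.6% with emetine. In HMLE TWIST it was at 30% and 33.1% with DMSO and at 26.5% and 19.8% with emetine. The responses differed by -23.1 percentage points (quasi-binomial model, adjusted p = 0.0308). A 126-nt exon of DCP1B differed by -13.0 points (adjusted p = 0.0495).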

How the results depend on the processing

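The count of changed member events was 7 in MCF10A and 6 in HMLE TWIST. It was 2 and 2 with limma on the log2 odds, 3 and 3 without the correction for effective length, and 1 and 2 with a change of at least 0.2. Leaving out a library gave 5 to 6 in MCF10A and 2 to 7 in HMLE TWIST, the lowest without HMLE TWIST control replicate 2. With a replicate block the counts were again 7 and 6, and 0 for both comparisons between the lines. Same-numbered libraries did not deviate together (correlation 0.018 in MCF10A and 0.007 in HMLE TWIST), so the numbers were not taken as pairs. Calls toward the unproductive form in MCF10A, 1 by the annotation, were 3 by exon length and 2 by the predicted reading frame, the last chosen after seeing the data. The count of members with a changed level in HMLE TWIST was 5, and 2 with median scaling. Leaving out a library gave 3 to 5, the lowest without HMLE TWIST emetine replicate 1. The 2 members whose level responded differently became 1 with all events summed, and 1 to 2 with a library left out. The cause of these shifts was not tested. With 20 reads as the minimum, small shares of a rare form could not be resolved.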
